A study of Mus musculus with 6 samples.

Results

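The genes described here are mouse Trp53, which encodes the tumor suppressor p53, and 9 genes that p53 is known to activate: Cdkn1a, Mdm2, Bax, Bbc3, Pmaip1, Gadd45a, Ccng1, Phlda3 and Sesn2. They were listed by name with earlier results of these data known, no value enters the rule, and they make up 10 of the 56884 genes in the mouse count table. All 10 passed the filter on low counts, as did 18018 mouse genes in all. The RNA came from tissue labelled liver of male BALB/c (nu/nu) athymic mice, wild type in the labels, in which cells of the human HCC line QGY-7703 had been placed at an age of 6 weeks. The mice received an adeno-associated virus (AAV8) with either a control siRNA or an siRNA against mouse Aatf, in each case 1 week after the tumor cells. The thyroxine-binding globulin promoter of the vector is active in hepatocytes and not in the other cells of the host. The mice were followed for 3 more weeks, and 3 libraries labelled siControl were compared with 3 libraries labelled siAATF. Both groups lack mature T cells and both carried human tumor cells. Whether each library came from its own mouse is not given in the labels, so p-values measure the spread between libraries, which may be technical.

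p53 is a transcription factor that is made all the time and destroyed all the time. MDM2 marks it for degradation, and stress such as DNA damage frees it from MDM2, after which it binds DNA and switches on genes for growth arrest, DNA repair, apoptosis and antioxidant defense. Mdm2 is itself one of those genes, which closes a negative feedback loop. Because p53 is regulated mainly as a protein, the level of Trp53 RNA says little about its activity, and the RNA of its targets is commonly read instead. In liver, p53 restrains the growth of damaged hepatocytes, and it also acts in stellate cells and other stromal cells. AATF, the protein targeted by the siRNA, is known as an antiapoptotic cofactor of transcription that has been tied to the p53 pathway.

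p53 binds as a tetramer to a pair of similar half-sites, each with a core of 4 bases. The half-site consensus reads the same on both strands, so 1 search covers both. The best 20-base element, a pair of adjoining half-sites, was looked for from 3000 bases before to 3000 bases after the annotated start of each of 21748 mouse genes in GRCm39. The 4 elements below lie upstream of members and show how near to, or far from, the consensus the best match was. Capitals mark the cores.
Cdkn1a: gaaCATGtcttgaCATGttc
Ccng1: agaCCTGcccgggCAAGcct
Phlda3: cagCTGGactcagCTTGcct
Sesn2: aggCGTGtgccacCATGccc
The Cdkn1a element (chr17:29309902-29309921, plus strand) had 1 mismatch to the consensus and lay 2827 bases before the canonical start, inside the annotated gene Gm64878. Of all gene windows, 0.897% held an element with at most 1 mismatch. The Ccng1 element (chr11:40646289-40646308, minus strand) also had 1 mismatch and lay 161 bases before the start, in a stretch shared with the annotated gene Gm57413. Bax and Pmaip1 had 2 mismatches at best, which 5.86% of windows reached or bettered. Trp53, Mdm2 and Bbc3 had 3, which 25.8% of windows reached. Gadd45a, Phlda3 (chr1:135691447-135691466, plus strand) and Sesn2 (chr4:132239171-132239190, minus strand) had 4, which is common, since 62.0% of windows held an element as good. In the RefSeq promoter windows of GRCm38.p6 (250 bases before to 50 after the start), a half-site was present in 8.36% of 32851 windows. At least 1 window of Trp53, Cdkn1a, Mdm2, Bax, Gadd45a and Ccng1 held one. Of the 2 windows of Cdkn1a, 1 held a full site (2 half-sites with a spacer of 0 to 13 bases), as 0.0731% of all windows did. No half-site was found in the windows of Bbc3, Phlda3 and Sesn2, and Pmaip1 had no window. These matches describe letters, not binding.

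The 2 groups differed first in how much mouse RNA they held. Mouse genes took 0.778% to 1.93% of all gene counts in siControl, or 213022 to 913584 counts, and 97.9% to 99.0% in siAATF, or 11835898 to 42563694 counts. All 6 libraries are labelled liver. How much tumor and how much host liver was taken for each is not given, and a difference in the tissue taken cannot be told apart from the treatment in any value below. The members rest on few reads in siControl. Summed over the 10 genes, replicates 1 to 3 of siControl held 544, 131 and 739 counts, and those of siAATF held 4627, 667 and 4012. Both libraries numbered 2 had the smallest mouse total of their group and its highest mitochondrial share, 10.5% of the mouse reads counted for siControl and 56.1% for siAATF, against 4.04% to 25.7% in the others. With both left out, 6 of the 10 genes were lower (13.1% of all genes), Mdm2 and Ccng1 beside the 4 named below. Aatf, the target of the siRNA, was at 9.63, 2.42 and 12.8 CPM (mouse counts relative to the mouse total of the library after TMM normalization, the scale used below) in siControl, given here and below for replicates 1, 2 and 3 in that order. Its siAATF values were 13.3, 22.0 and 18.9 CPM. The RNA was thus not lower in siAATF per mouse count (log2 fold change 0.93, standard error 0.47, edgeR adjusted p = 0.152), and scaling by mouse library size alone turned it to -0.92. Groups are therefore named by the labels of their libraries.

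Markers of the host cells differed strongly beside the p53 genes. Per mouse count, 10 of 10 hepatocyte markers were higher in siAATF, where 17.6% of all genes were (Alb, albumin, with a log2 fold change of 4.23). Their summed level ran from 2964 to 7352 CPM over the siControl libraries and from 33906 to 106180 CPM over those of siAATF. The calls of Alb and Fgb were lost without siControl replicate 2, those of Alb, Apoa1 and Fgb without siControl replicate 3 and that of Fgb without siAATF replicate 3, which left 7 to 10 of the 10 higher. Fibroblast and pericyte markers went the other way, with 8 of 10 lower, where 14.4% of all genes were, and a median log2 fold change of -4.18. Their sums were 8826 to 12923 CPM in siControl against 451 to 645 CPM in siAATF. Endothelial markers were lower for 7 of 9, with sums of 544 to 773 CPM in siControl against 81.2 to 256 CPM. With both libraries numbered 2 left out 4 of the 9 were lower (13.1% of all genes), the calls of Egfl7, Tie1 and Esam being lost. That of Tie1 was also lost without siControl replicate 2 or 3 or siAATF replicate 2. Macrophage markers were lower for 7 of 9 (1174 to 3962 CPM against 113 to 271 CPM). Neutrophil markers were lower for 6 of 7, and here the sums overlapped, at 92.3 to 1920.5 CPM against 2.22 to 138 CPM. With single libraries left out, 2 to 7 of them were lower, with 2 without siControl replicate 2 or 3 or siAATF replicate 2. Scaled by human and mouse counts together, 5 fibroblast, 8 endothelial, 4 macrophage and 2 neutrophil markers turned above 0 or stayed there. None of these markers was at 0 counts in every library of a group. In bulk RNA, fewer cells of a type and less RNA per cell cannot be told apart, and the part of cell composition in the values below was not tested.

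Of the 10 members, 4 (Cdkn1a, Gadd45a, Pmaip1 and Phlda3) were lower at an edgeR adjusted p under 0.05, where 14.4% of all tested genes were, and 0 were higher, where 17.6% were. At an unadjusted p under 0.05, 7 were lower (17.8% of all genes), and 3 of them, Pmaip1, Phlda3 and Gadd45a, also met the study's cutoff of 2 on the log2 scale (13.1% of all genes). All 10 log2 fold changes were below 0, as were 38.6% of those of all genes, with a median of -1.11 against 0.50 over all genes. For 6 members every siAATF library was below every siControl library, which held for 18.1% of all genes, and for 0 was it the reverse (34.5% of all genes). These directions hold per mouse count. When libraries were scaled by human and mouse counts together, the median of all genes moved to 4.66 and all 10 members turned to higher levels in siAATF, 8 of them past the threshold, as 87.2% of all genes were. By mouse library size alone the median of all genes was -1.30 and all 10 members were lower past the threshold, as 40.4% of all genes were. Under each of these scalings all 10 stood below the median of all genes, which 50.0% of genes do by construction.

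**Figure D1:**
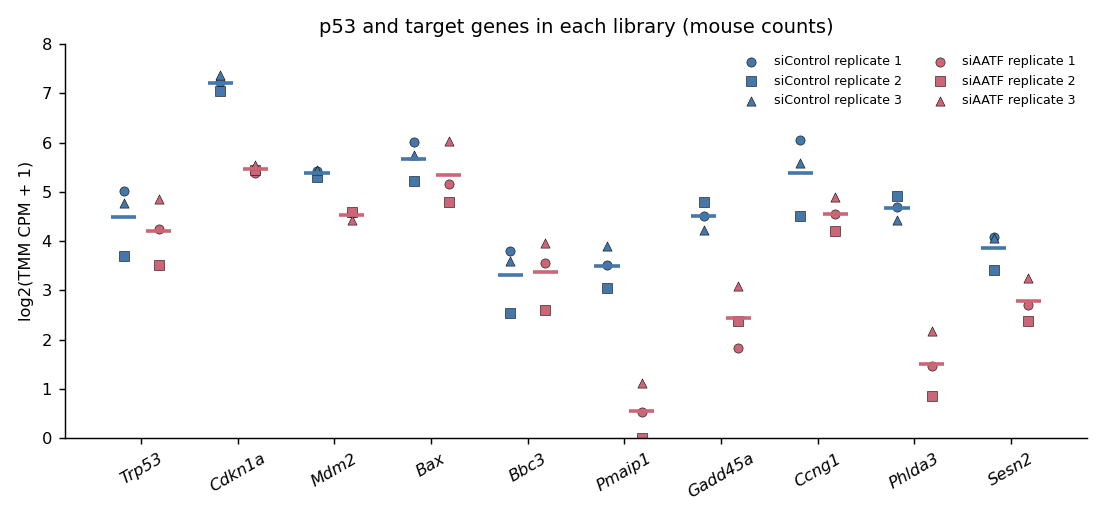
Level of each gene in each library, as log2(TMM CPM + 1) of mouse counts, with circles, squares and triangles for replicates 1 to 3 and a bar for the group mean. The siAATF points lie below all siControl points for Cdkn1a, Mdm2, Pmaip1, Gadd45a, Phlda3 and Sesn2 and overlap them for the other 4, per mouse count; scaled by human and mouse counts together, all 10 genes turn higher in siAATF.

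Trp53 (ENSMUSG00000059552, GRCm39 chr11:69471185-69482699) did not differ past the threshold. Its level was 31.3, 12.1 and 26.2 CPM in siControl, against 18.1, 10.5 and 27.8 CPM in siAATF. The groups overlapped, and in both the library numbered 2 was lowest. The log2 fold change was -0.37 (standard error 0.45, edgeR adjusted p = 0.546), with a normal 95% interval from -1.24 to 0.51. That interval holds the changes that the fit leaves possible, lower and higher levels alike. The spread between libraries was alike in both groups (coefficients of variation of 42.9% and 46.2%) although siAATF held more counts of Trp53. The 2 other genes of the family, Trp63 and Trp73, had 0 counts in every library, and the 3 counts per library that a count of 0 allows equal 1.67 to 7.25 CPM (siControl) and 0.104 to 0.605 CPM (siAATF).

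Mdm2 (ENSMUSG00000020184, chr10:117524780-117546663), the ubiquitin ligase that degrades p53 and a p53 target, was among the steadiest members over replicates. It had 41.8, 38.7 and 42.4 CPM in siControl and 22.7, 22.99 and 20.6 CPM in siAATF, with coefficients of variation of 4.89% and 5.79%. Every siAATF library was below every siControl library. The log2 fold change of -0.90 (standard error 0.33, edgeR adjusted p = 0.0524) stayed just short of the threshold, and it passed without siAATF replicate 2 (-0.87) and with both libraries numbered 2 left out (-0.98). Its partner Mdm4, which blocks p53 without degrading it, had 16.1, 19.3 and 19.5 CPM in siControl and 21.7, 24.6 and 17.2 CPM in siAATF. The groups overlapped (log2 fold change 0.21, standard error 0.36, edgeR adjusted p = 0.672), and scaling by mouse library size alone turned Mdm4 to -1.61.

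Of the members that stop growth, Cdkn1a and Gadd45a were lower in siAATF per mouse count and Ccng1 was not past the threshold. Cdkn1a (ENSMUSG00000023067, chr17:29309953-29319701) encodes p21, the inhibitor of cyclin-dependent kinases through which p53 halts the cell cycle. It was the most abundant member in CPM in siControl, with 149, 130 and 165 CPM, and it had 40.6, 42.6 and 45.5 CPM in siAATF. The groups were far apart beside their spread of 148 ± 17.1 CPM (SD, n = 3) and 42.9 ± 2.47 CPM (SD, n = 3). Its log2 fold change was -1.79 (standard error 0.37, edgeR adjusted p = 0.00253), or 3.46 times more in siControl, and it passed the threshold under each of 19 alternatives, though in the other direction when scaled by human and mouse counts together (2.44). Of its exon bases, 10.04% are shared with Dino, an antisense long noncoding RNA gene, and since the strand setting of the counting is not stated, reads of the 2 cannot be told apart there.

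Gadd45a (ENSMUSG00000036390, chr6:67012080-67014390), a stress sensor that binds p21 and PCNA, had 21.7, 26.6 and 17.8 CPM in siControl. Its level was 2.55, 4.24 and 7.49 CPM in siAATF. Every siAATF library was well below every siControl library, and the log2 fold change was -2.17 (standard error 0.48, edgeR adjusted p = 0.00419). The gene shares 19.5% of its exon bases with the antisense gene E230016M11Rik. Ccng1 (ENSMUSG00000020326, chr11:40639379-40646138), cyclin G1, which feeds back on p53 through MDM2, had 65.0, 21.7 and 46.9 CPM in siControl. In siAATF it had 22.3, 17.3 and 28.7 CPM. The siControl replicate 2, with 9 counts, lay among the siAATF libraries. The log2 fold change was -1.01 (standard error 0.41, edgeR adjusted p = 0.0804), and it was past the threshold without siControl replicate 2 (-1.29) and with both libraries numbered 2 left out (-1.15).

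The apoptotic members divided. Bax and Bbc3 did not differ past the threshold, whereas Pmaip1 and Phlda3 had the lowest log2 fold changes of the 10. Bax (ENSMUSG00000003873, chr7:45111121-45116322), the effector that permeabilizes the outer mitochondrial membrane, had 63.4, 36.2 and 52.99 CPM in siControl and 34.9, 26.8 and 64.6 CPM in siAATF. The groups overlapped, and the highest library of the 6 was siAATF replicate 3 (log2 fold change -0.29, standard error 0.41, edgeR adjusted p = 0.609, interval -1.11 to 0.52). Bax shares 22.1% of its exon bases with Gm45808 on the same strand, so that its counts are uncertain there. Bbc3 (ENSMUSG00000002083, chr7:16043541-16052130), which encodes the BH3-only protein PUMA, had 12.8, 4.83 and 11.2 CPM in siControl and 10.8, 5.04 and 14.6 CPM in siAATF. The 2 sets of values were nearly superimposed, with a log2 fold change of -0.01 (standard error 0.50, edgeR adjusted p = 0.990, interval -0.997 to 0.97), whose sign turned under 7 alternatives.

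Pmaip1 (ENSMUSG00000024521, chr18:66591604-66598636), which encodes NOXA, a BH3-only protein that opposes MCL1, had 10.4, 7.25 and 13.9 CPM in siControl. In siAATF it had 0.449, 0 and 1.16 CPM, and the 0 allows up to 0.605 CPM at 3 counts. It rests on 41 counts in the 3 siControl libraries and 34 in the 3 siAATF libraries, a pooled ratio of 18.2 with a 95% Poisson interval of 11.2 to 29.5 that covers counting error only. The log2 fold change was -4.13 (standard error 0.80, edgeR adjusted p = 0.00183). Thinned to the smallest mouse total it was -4.34 and the call was lost (adjusted p = 0.0640), and scaled by human and mouse counts together the value was 0.04. Phlda3 (ENSMUSG00000041801, chr1:135693857-135696874), which restrains AKT signaling by competing for membrane lipids, had 24.9, 29.0 and 20.6 CPM in siControl and 1.76, 0.807 and 3.55 CPM in siAATF. Every siControl library was above 20 CPM and every siAATF library below 4 CPM. Its log2 fold change of -3.49 (standard error 0.52, edgeR adjusted p = 0.000346) had the smallest p of the members, and it turned to 0.78, not past the threshold, when scaled by human and mouse counts together.

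Sesn2 (ENSMUSG00000028893, chr4:132219343-132237812), sestrin 2, which links p53 to the restraint of mTORC1 and to antioxidant defense, had 16.1, 9.66 and 15.6 CPM in siControl. It had 5.56, 4.24 and 8.49 CPM in siAATF. Every siAATF library was below every siControl library, by a small margin between siAATF replicate 3 and siControl replicate 2, which held 4 counts. The log2 fold change was -1.22 (standard error 0.45, edgeR adjusted p = 0.0547), just short of the threshold, and without siAATF replicate 3 it was -1.46 and past it.

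**Figure D2:**
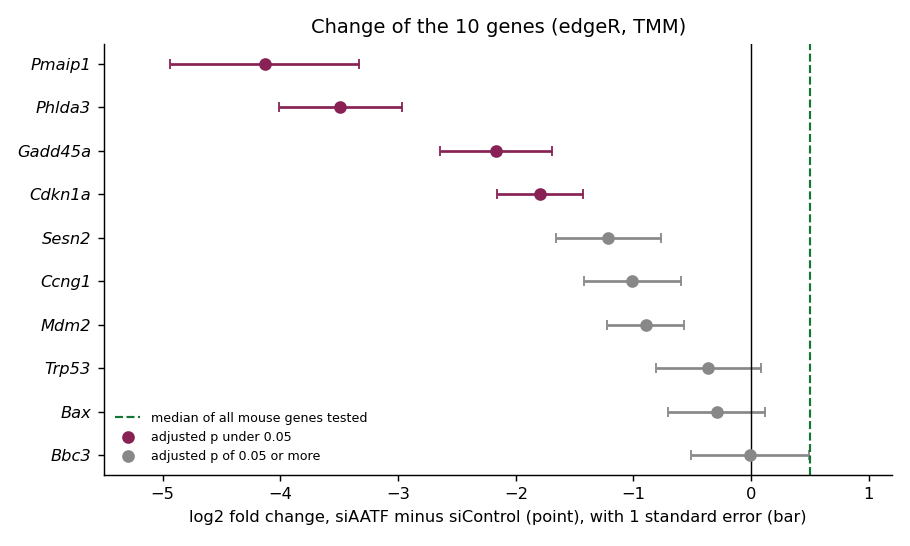
Log2 fold change of each gene (siAATF minus siControl, edgeR with TMM) with 1 standard error, in purple where the adjusted p was under 0.05 and in grey where it was not. The dashed line marks the median of all mouse genes tested, 0.50; all 10 points lie to its left, from Pmaip1 at -4.13 to Bbc3 at -0.01, and all 10 points move above 0 when libraries are scaled by human and mouse counts together.

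Ratios within a library do not depend on how libraries are scaled to each other. Each gene's share of the summed counts per kilobase of the 10 genes was computed in each library, so that the shares add up to 100%. Bax took 32.2%, 25.4% and 29.5% in siControl, against 45.0%, 42.7% and 53.1% in siAATF. The mean share of Trp53 was 6.02% ± 1.84 (SD, n = 3) against 9.72% ± 1.72 in siAATF, and that of Bbc3 2.57% ± 0.826 against 5.41% ± 1.43. Cdkn1a took 24.2%, 29.1% and 29.2% in siControl and 16.7%, 21.6% and 11.9% in siAATF. The means of Phlda3 were 8.94% and 1.30%, those of Gadd45a 9.34% and 3.82%, and those of Pmaip1 1.92% and 0.162%. These 7 genes showed no overlap between groups (p = 0.1 each by an exact, two-sided permutation test, the smallest p possible with 3 libraries against 3, and 0.143 after adjustment over the 10 genes). The shares of Mdm2, Ccng1 and Sesn2 overlapped between the groups, and the small differences of Mdm2 and Ccng1 changed sign without siAATF replicate 2 and without siControl replicate 2, respectively. Since shares add to 100%, a higher share of one gene lowers the others.

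Pairs of members were compared by their counts within each library, where 3 libraries against 3 cannot give an exact p under 0.1. For each count of Mdm2, Cdkn1a had 3.58, 3.38 and 3.88 counts in siControl against 1.79, 1.85 and 2.21 in siAATF. No siAATF library reached a siControl library, with means of 3.61 ± 0.255 (SD, n = 3) and 1.95 ± 0.224 (exact permutation test, two-sided, p = 0.1). Counts of Cdkn1a per count of Trp53 were 7.28 ± 3.14 in siControl and 2.65 ± 1.26 in siAATF, again without overlap (exact permutation test, p = 0.1), and those of Mdm2 per count of Trp53 overlapped, at 2.05 ± 1.01 and 1.40 ± 0.735 (exact permutation test, p = 0.4). Summed over the 10 genes, the level was 388 ± 63.6 CPM in siControl and 172 ± 45.3 CPM in siAATF. As CPM of the gene counts of both species together the order turned, with 11.1 ± 5.52 in siControl and 92.1 ± 32.1 in siAATF.

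**Figure D3:**
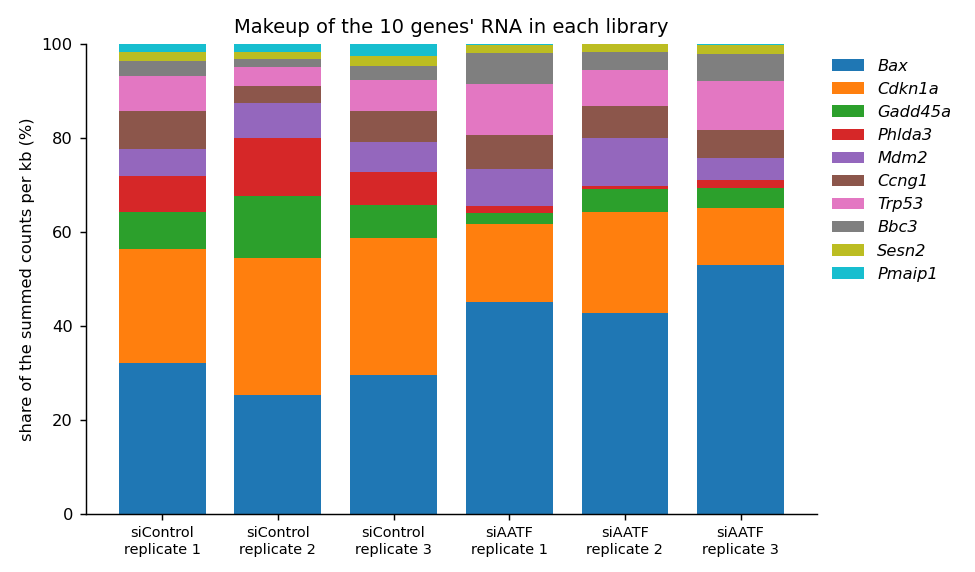
Share of each gene in the summed counts per kilobase of the 10 genes, in percent, for each library. Bax (blue) takes 25.4% to 32.2% of the bar in siControl and 42.7% to 53.1% in siAATF, and Phlda3 (red), Gadd45a (green) and Cdkn1a (orange) take less in every siAATF library than in any siControl library.

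Levels can be compared between genes per kilobase of exon. In siControl the order was Bax (58.7 ± 15.8 CPM per kilobase), Cdkn1a (54.5 ± 6.28), Gadd45a (18.02 ± 3.58), Phlda3 (17.3 ± 2.91), Mdm2 (13.02 ± 0.636), Ccng1 (12.7 ± 6.19), Trp53 (12.4 ± 5.33), Bbc3 (5.30 ± 2.33), Sesn2 (3.97 ± 1.03) and Pmaip1 (3.86 ± 1.23). Only the steps from Cdkn1a to Gadd45a and from Phlda3 to Mdm2 separated neighbors whose ranges over libraries did not overlap. In siAATF, Bax (48.6 ± 22.9 CPM per kilobase) and Cdkn1a (15.8 ± 0.907) were again first, and Trp53 (10.1 ± 4.64) came next, with no overlap of ranges at either step. Mdm2, Ccng1, Bbc3, Gadd45a and Sesn2 followed, each overlapping its neighbors, and Phlda3 (1.42 ± 0.971) stood above Pmaip1 (0.197 ± 0.215) without overlap. Replicates differed in a shared way. The library numbered 2 held the lowest value of its group for 8 of the 10 genes in siControl and for 7 in siAATF, and siAATF replicate 3 held the highest for 9.

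Genes that act on p53 were examined next. Of 16 genes whose proteins activate or stabilize p53, 1 was lower (14.4% of all genes) and 1 higher (17.6% of all genes), with a median log2 fold change of 0.26 against 0.50 over all genes. These counts turned on the scaling. By mouse library size alone 8 were lower (40.4% of all genes) and 0 higher, and by human and mouse counts together 0 were lower and 14 higher (87.2% of all genes). The lower gene, Cdkn2a, whose alternative product ARF holds MDM2 away from p53, had 4, 0 and 11 counts in siControl against 3, 1 and 1 in siAATF, a pooled ratio of 45.2 with a 95% Poisson interval of 15.6 to 159. The siControl replicate 3 held 11 of the 15 counts, the groups overlapped, and without it the ratio was 25.1 (4.97 to 116) and the gene had too few counts to be tested. Hipk2, a kinase that directs p53 to apoptotic genes, was higher in siAATF (18.5, 9.66 and 10.04 CPM against 26.3, 97.0 and 38.2 CPM, log2 fold change 2.03, edgeR adjusted p = 0.0119), and this call was lost without siControl replicate 2 (1.92), without siControl replicate 3 (1.83) with both libraries numbered 2 left out (1.18), in thinned counts (1.40) and by mouse library size alone, where little of the change was left (0.095). Of 8 genes that restrain p53 besides Mdm2, 0 were lower and 1 was higher, which was Rbbp6, a ubiquitin ligase that acts with MDM2 (log2 fold change 1.39, edgeR adjusted p = 0.0449). By mouse library size alone 6 of the 8 were lower and 0 higher, and by human and mouse counts together all 8 were higher. Rbbp6 passed under only 8 of 19 alternatives, was lost without siControl replicate 1, 2 or 3 (1.31, 1.48 and 1.33) or siAATF replicate 2 (0.79), and by mouse library size alone was -0.57.

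Other genes that p53 is known to activate went both ways. Of 45 such genes 44 could be tested, of which 11 were higher and 12 lower, where 17.6% and 14.4% of all genes were. Their median log2 fold change was -0.09 (0.50 over all genes). Without siControl replicate 2 the count of higher ones was 7 (12.6% of all genes), and without siControl replicate 3 it was 5 (9.08% of all genes). Among 6 targets of growth arrest, 2 were lower and 0 higher. These were Plk2 (means ± SD of 3 libraries, here and below, of 60.5 ± 13.8 CPM in siControl and 8.003 ± 0.977 in siAATF, log2 fold change -2.91, edgeR adjusted p = 0.000122), a kinase of the polo family, and Btg2 (60.3 ± 24.5 and 10.8 ± 8.47 CPM, -2.45, adjusted p = 0.00732), an antiproliferative regulator of mRNA decay. Both turned higher when scaled by human and mouse counts together, as did Apaf1 and Bak1 below. Among 13 apoptotic targets, 2 were lower and 2 higher. Apaf1, the scaffold of the apoptosome, fell from 16.5 ± 8.05 to 2.52 ± 0.413 CPM (-2.81, adjusted p = 0.000881, with the call lost in thinned counts at -1.32), and Bak1, which permeabilizes mitochondria as Bax does, from 58.7 ± 2.12 to 14.5 ± 3.13 CPM (-2.005, adjusted p = 0.000922). Perp, a membrane protein of epithelial junctions, rose from 8.21 ± 4.76 to 87.5 ± 33.0 CPM (3.34, adjusted p = 0.000383), and Ei24, an autophagy protein of the endoplasmic reticulum, from 35.9 ± 10.3 to 123 ± 48.2 CPM (1.74, adjusted p = 0.00950). The call of Ei24 was lost without siControl replicate 2 (1.55) or replicate 3 (1.81), in thinned counts (1.01) and by mouse library size alone, where almost none of the change was left (0.019).

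Of 8 targets of DNA repair, 2 were lower and 2 higher, beside 14.4% and 17.6% of all genes. Pcna, the replication clamp, had a log2 fold change of -2.43 (edgeR adjusted p = 0.00447), and Polh, a translesion polymerase, of -1.84 (adjusted p = 0.0484). Both turned higher when scaled by human and mouse counts together. Polh overlapped between the groups and lost its call without siControl replicate 1 (-1.94) or 3 (-1.27) or siAATF replicate 2 (-1.73) or 3 (-1.52). Ercc5, an excision repair nuclease, had 1.80 (adjusted p = 0.0101), and Mgmt, which removes alkyl groups from guanine, had 1.59 (adjusted p = 0.0268). The calls of both were lost without siControl replicate 3 (1.83 and 1.31) and with both libraries numbered 2 left out (1.31 and 1.45), that of Mgmt also without siControl replicate 2 (1.36) and that of Ercc5 in thinned counts (1.13), and their signs turned by mouse library size alone.

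Of 11 metabolic targets tested, 6 were higher and 2 lower, where 17.6% and 14.4% of all genes were, with a median log2 fold change of 1.62 against 0.50 over all genes. The calls of Steap3, a ferrireductase, and Ephx1, an epoxide hydrolase, were lost without siControl replicate 3, which leaves 4 higher genes (9.08% of all genes). That of Ephx1 was also lost without siControl replicate 2, which leaves 5 higher genes (12.6% of all genes). In thinned counts 3 were higher and 2 lower (12.99% and 18.5% of all genes), and by mouse library size alone 2 were higher and 4 lower (4.15% and 40.4% of all genes), with a list median of -0.14 and the calls of Steap3, Ephx1, Fdxr and Lpin1 lost. Gls2, the liver form of glutaminase, had 5.62, 2.42 and 2.79 CPM in siControl and 197, 97.0 and 186 CPM in siAATF (log2 fold change 5.40, standard error 0.55, edgeR adjusted p = 4.52e-05). Aldh4a1, a mitochondrial enzyme of proline breakdown, rose from 14.5 ± 13.3 to 214 ± 88.3 CPM (3.79, adjusted p = 0.000625). Both enzymes are abundant in hepatocytes, whose markers were all higher in siAATF per mouse count, and the part of cell composition in these rises was not tested. Dram1, a lysosomal regulator of autophagy, fell to 0.587, 0 and 0.888 CPM from 29.7, 29.0 and 52.4 CPM, a pooled ratio of 65.2 with a 95% Poisson interval of 44.4 to 98.4. Ddit4, an inhibitor of mTORC1 like Sesn2, had a log2 fold change of -1.84 (adjusted p = 0.0123), which lost its call without siControl replicate 3 (-1.29) and turned higher when scaled by human and mouse counts together. Sco2 had 0 counts and was not tested.

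Secreted and surface targets were lower for 4 of 6 and higher for 1, where 14.4% and 17.6% of all genes were. Thbs1, the matrix glycoprotein thrombospondin 1, had 221, 350.3 and 293 CPM in siControl and 1.93, 0.403 and 1.61 CPM in siAATF (log2 fold change -7.63, standard error 0.62, edgeR adjusted p = 2.13e-05). Cd82, a tetraspanin, was the higher one (1.24, adjusted p = 0.0411), and its sign turned by mouse library size alone. Its call was lost without siControl replicate 1, 2 or 3 (1.31, 1.01 and 1.45) or siAATF replicate 1 (1.06).

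p21 acts downstream to silence cell cycle genes through the DREAM complex. Per mouse count with TMM, 10 of 12 such genes were lower in siAATF (14.4% of all genes) and 0 higher (17.6% of all genes), and all 12 log2 fold changes were below 0 (38.6% of all genes), with a median of -3.37. Scaled by human and mouse counts together, 10 of the 12 turned above 0, 2 of them past the threshold, where 87.2% of all genes were. The median of the list was then 0.83, against 4.66 over all genes. Of the 10 calls, 6 (Birc5, Ccnb1, Ccnb2, Cdc25c, Foxm1 and Plk1) were lost when 1 library or another was left out. Without siControl replicate 3 only 4 of the 11 genes then tested were lower, where 9.70% of all genes were. Bub1, a kinase of the spindle checkpoint, had 7, 1 and 18 counts in siControl against 2, 0 and 6 in siAATF, a pooled ratio of 48.9 with a 95% Poisson interval of 21.5 to 125. Cdc25c, a phosphatase of mitotic entry, had 6 counts in siControl and 4 in siAATF, a ratio of 22.6 with an interval of 5.35 to 109, and its call (adjusted p = 0.0344) was lost without siAATF replicate 1 (-3.35) or 2 (-3.94).

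The BCL-2 family, which carries the apoptotic signal of PUMA, NOXA and BAX, was lower for 4 of 8 tested genes beside the members (14.4% of all genes) and higher for 0 (17.6% of all genes), and these directions also turned when scaled by human and mouse counts together. The lower ones were the BH3-only genes Bcl2l11 (BIM, log2 fold change -3.07, edgeR adjusted p = 0.000402) and Bmf (-2.95, adjusted p = 0.00422) and the guardians Bcl2 (24.7 ± 2.57 CPM in siControl, 4.04 ± 1.41 in siAATF, -2.62, adjusted p = 0.000587) and Mcl1 (258 ± 32.2 and 92.5 ± 23.2 CPM, -1.48, adjusted p = 0.0153). Mcl1 lost its call without siControl replicate 3 (-1.43). Bcl2l1, which encodes BCL-XL, had 89.4 ± 18.7 and 48.4 ± 14.5 CPM without overlap (-0.88, adjusted p = 0.0983). Genes for and against apoptosis were thus both among those that were lower.

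**Figure D4:**
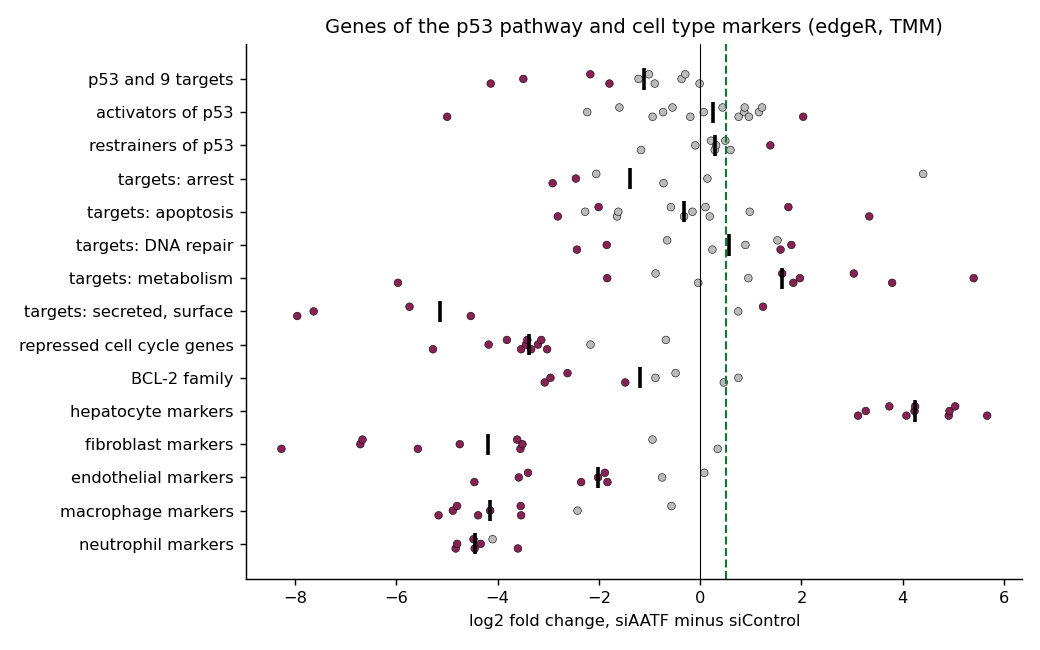
Log2 fold changes (siAATF minus siControl, edgeR with TMM) of the 10 genes, of other genes of the p53 pathway and of cell type markers, 1 point a gene, purple where the adjusted p was under 0.05, with a black bar at each list's median and a dashed line at the median of all genes, 0.50. The 10 genes lie between 0 and -4.13 with a median of -1.11, against medians of -3.37 for the repressed cell cycle genes and 1.62 for the metabolic targets, and the points of these lists overlap; scaled by human and mouse counts together, the members and most other genes shift above 0.

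The genes whose pattern over the 6 libraries was most like that of Trp53, among the 3552 genes that reached 10 counts in each of the 6 libraries, were H2-K1 (Pearson's r = 0.991 of log2(CPM + 1)), a class I histocompatibility gene, Igtp (r = 0.958), an interferon-inducible GTPase, and Agap3 (r = 0.956). With 6 libraries that share depth and composition these values are a description. Trp53 itself, with 5 counts in siControl replicate 2, was outside that set.

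How firmly each gene stood depended on the scaling and the filter. Of the 10 genes, Cdkn1a and Gadd45a were past the threshold under each of 19 alternatives, although with higher levels in siAATF when scaled by human and mouse counts together, Phlda3 under 17 of 18 and Pmaip1 under 16 of 18. Mdm2 passed as lower under 10 of 19, Ccng1 under 8 of 18 and Sesn2 under 7 of 18, and each passed as higher when scaled by human and mouse counts together. With DESeq2, the tool that the authors used, these 3 were among 7 lower genes, where 16.3% of all genes were lower. Trp53, Bax and Bbc3 passed only under the 2 scalings by library size, and there in opposite directions. The median of the 10 genes lay 1.62 below that of all genes, and 1.07 to 2.16 below it over the alternatives.

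**Figure D5:**
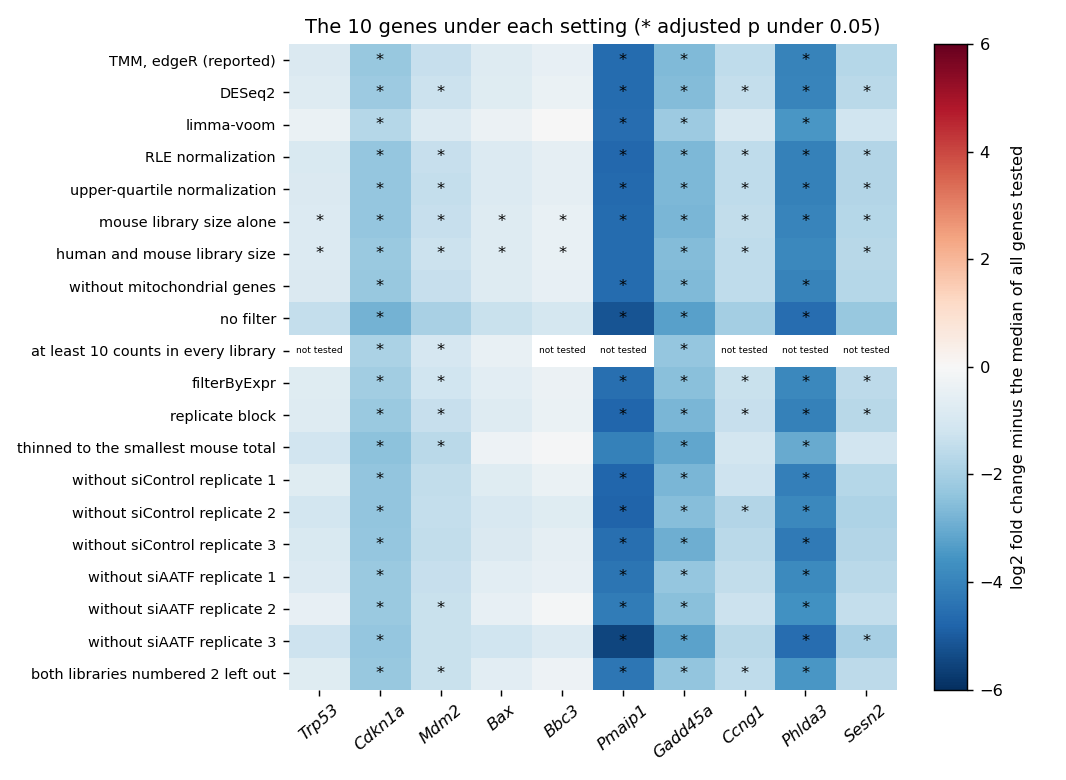
Log2 fold change of each gene minus the median of all genes tested, under the reported analysis and each alternative, with an asterisk where the gene's own change had an adjusted p under 0.05. Cells are blue throughout, since each gene lay below the median of all genes in each setting in which it was tested; in the row scaled by human and mouse counts together the changes themselves were above 0, and asterisks there mark genes higher in siAATF.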

How the data were processed

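Total RNA from liver was sequenced in 6 libraries prepared with a SMART-Seq kit, 3 in each group, and replicates were taken from the labels. Reads were aligned by the authors to the joined human and mouse genomes (STAR 2.7.11), and reads with several places of origin, or a place in both genomes, were discarded. The deposited values are raw counts per gene (featureCounts 2.0.1; gencode vM33 for mouse, GRCm39), with no normalization. Whether strand was used is not stated.

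Mouse identifiers were named from gencode vM39, in which 56323 of 56884 were found. The human table gave library totals only, without 1 gene broken over 3 lines. Counts were tested with edgeR 4.0.16 (R 4.3.3, limma 3.58.1) by quasi-likelihood, with TMM factors, the group as sole term and Benjamini-Hochberg adjustment over the 18018 genes whose counts summed to 10 or more. Standard errors are the log2 fold change over the square root of F. The study's criteria were p under 0.05 without adjustment together with a change of 2 or more on the log2 scale. Mouse totals ran from 213022 to 42563694 counts, and intervals, and limits for 0 counts, express counting error alone, because PCR copies of a molecule were counted separately. The test was run on simulated counts in which 200 genes were changed and both groups otherwise had the same mouse composition. That check does not cover the difference in composition between the groups of these data.

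The members and gene lists were chosen with earlier results of these data known. Named were all members, Aatf, the 2 largest rises and 2 largest falls past the threshold in each other list of the pathway, and a fixed set of regulators, Alb and Col1a1. The values of 1 gene named by this rule are not reported here. Alternatives were DESeq2 1.42.0, limma-voom, RLE and upper-quartile normalization, mouse library size alone, human and mouse library size, leaving out mitochondrial genes, no filter, at least 10 counts in every library, filterByExpr, a replicate block, thinning to the smallest mouse total, each library left out in turn and, chosen after seeing the data, both libraries numbered 2 left out. Response elements were read from GRCm39 and RefSeq promoter windows of GRCm38.p6.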

Additional observations from a re-analysis of the deposited data

How the results depend on the processing

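Of 184 values of single members under alternatives, 139 kept their direction and side of the threshold, 28 newly passed it, 1 no longer did and 16 reversed. The number of members lower (4, with 14.4% of all genes) was 7 with DESeq2 (16.3%), RLE (15.2%) and upper-quartile normalization (16.8%). It was also 7 with filterByExpr (21.8%), with the replicate block (16.2%) and at an unadjusted p (17.8%). By mouse library size alone it was 10 (40.4%). By human and mouse library size it was 0 (0.66%), with 8 higher members in place of 0 (87.2% of all genes). Members past the study's criteria (3) were 9 by mouse library size alone, where 5577 of 18018 genes met them as lower. They were 8 by human and mouse library size, where 15494 of 18018 genes met them as higher. With at least 10 counts in every library 1 of only 4 members tested met them, where 487 of 3552 genes did as lower. At a |log2 fold change| of at least 1 they were 6. Other targets that were higher (11) and lower (12) were 3 and 26 by mouse library size alone (4.15% and 40.4% of all genes). They were 36 and 3 by human and mouse library size (87.2% and 0.66%). With at least 10 counts in every library they were 1 and 4 of 7 tested (24.55% and 24.58%). In thinned counts 4 of 35 tested were higher (12.99%). With each library left out in turn, 4 to 5 members were lower, 0 were higher and 2 to 3 met the study's criteria. Other targets were then higher for 5 to 12 and lower for 10 to 14. The shares of all genes moved too. The lower share ran from 1722 of 17749 genes (without siControl replicate 3) to 2495 of 16950 (without siAATF replicate 3). The higher share ran from 1611 of 17749 to 3560 of 16950 in the same settings. The share meeting the study's criteria as lower ran from 1973 of 17749 (without siControl replicate 3) to 2157 of 16290 (without siAATF replicate 1). With both libraries numbered 2 left out, 6 members were lower (13.1% of all genes). These scalings differ by construction in what they hold constant, and the cause of the other shifts was not tested.

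Scaled by human and mouse counts together, log2 fold changes reversed to 3.83 for Trp53, 2.44 for Cdkn1a, 3.35 for Mdm2, 3.91 for Bax, 4.21 for Bbc3, 0.038 for Pmaip1, 2.06 for Gadd45a, 3.15 for Ccng1, 0.78 for Phlda3 and 2.99 for Sesn2. The same scaling gave 1.40 for Plk2, 1.88 for Btg2, 1.37 for Apaf1, 2.30 for Bak1, 1.79 for Pcna, 2.38 for Polh, 2.33 for Ddit4, 1.201 for Bcl2l11, 1.31 for Bmf, 1.66 for Bcl2, 3.44 for Bcl2l1 and 2.87 for Mcl1. By mouse library size alone, Aatf was -0.92, Rbbp6 -0.57, Ercc5 -0.090, Mgmt -0.20, Cd82 -0.49 and Mdm4 -1.61. Mdm4 was -0.061 with upper-quartile normalization and -1.16 in thinned counts. Bbc3 was 0.097 with no filter, 0.075 with the replicate block, 0.066 with both libraries numbered 2 left out and -0.28 to 0.34 with single libraries left out, above 0 without siControl replicate 1 or 3 or siAATF replicate 2. With single libraries left out, the share of Mdm2 differed by -0.235 (without siAATF replicate 2) to 2.47 percentage points, and that of Ccng1 by -0.717 (without siControl replicate 2) to 1.48.

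Beside the losses given with each gene, calls were lost in thinned counts for Polh (-1.78), Cd82 (0.59), Rbbp6 (0.78), Bub1 (-4.33) and Bmf (-4.47), with no filter (-1.74) or both libraries numbered 2 left out (-2.07) for Polh, with limma-voom (1.10) or upper-quartile normalization (0.95) for Cd82, with limma-voom (1.31), RLE (1.32), upper-quartile normalization (1.12), filterByExpr (1.34) or both libraries numbered 2 left out (0.82) for Rbbp6, and by human and mouse library size for Cdkn2a (-0.94), Bub1 (-1.19) and Cdc25c (-0.14). Lower genes of the repressed list were 6 of 10 in thinned counts (18.5% of all genes) and 6 of 11 with both libraries numbered 2 left out (13.1%). Those of the BCL-2 family were 7 of 8 by mouse library size alone (40.4%). Neutrophil markers that were lower were 4 of 7 with DESeq2 (16.3%) and 2 of 6 with both libraries numbered 2 left out (13.1%).

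Whether equal replicate numbers mark pairs is not settled. Deviations from the group means correlated at 0.145, 0.212 and -0.0229 for numbers 1 to 3, and siControl replicate 1 correlated best with siAATF replicate 3 (0.176). The value of 0.212 was the highest of any siControl and siAATF library. With 3 libraries in each group such correlations cannot decide for or against pairs. With the replicate block 7 members were lower (16.2% of all genes). Depth limits the members most in siControl, where 3 counts equal 1.67 to 7.25 CPM.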
